A study of Mus musculus with 36 samples.

Results

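The genes of the mitochondrial ribosomal proteins were followed across mouse hearts in which 1 of 3 kinase pathway transgenes had been switched on. Members were the genes whose current symbol begins with Mrpl (large subunit series) or Mrps (small subunit series) and a digit, read from probe sets that the array annotation ties to a single symbol. Each gene was represented by its brightest probe set over the 36 arrays. This gave 76 genes, 47 Mrpl and 29 Mrps, of 12626 genes tested, from 156 probe sets, and all 76 lay above the filter on dim probe sets. Another 4 Mrp probe sets carried several symbols and were left out. Frozen left ventricle was profiled on Affymetrix arrays, and all values are MAS5 signals, a linear probe set brightness.

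The 3 lines carried a floxed transgene and the tamoxifen-activated Cre Mer-Cre-Mer, both driven by the cardiomyocyte promoter αMHC, on a C57 black background. HRas-v12 is an active Ras, MKK3bE a constitutively active MAP kinase kinase that signals to p38, and MKK7D one that signals to JNK. All mice, including littermate controls without transgenes, received 20 mg/kg tamoxifen by injection on each of 3 days at 12 weeks of age, so the controls share the drug but not the Cre. Hearts were collected early, 4 to 7 days after the first injection, or late, at 2 to 4 weeks. HRas-v12 hearts came from females (2 early arrays, 3 late) and males (3 early, 3 late), MKK3bE hearts from females (2 early, 2 late) and males (3 late), and both lines share the same 3 male and 3 female control arrays, whose titles give no time. MKK7D hearts, all female, had 3 early and 3 late arrays, each time with 3 control arrays of its own. The labels do not say that replicates were separate animals, so p-values measure the spread between arrays, and the small number of arrays limits the precision.

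The mitochondrial ribosome translates the few messages encoded in mitochondrial DNA, all of them for core subunits of the respiratory chain and of ATP synthase. Its ribosomal RNAs come from mitochondrial DNA, whereas all its proteins, including every gene described here, are encoded in the nucleus, made in the cytosol and imported. Some of these proteins descend from bacterial ribosomal proteins and others are found only in mitochondria. The heart relies heavily on respiration, and inherited defects of MRPL44, MRPL3 or MRPS22 in people can cause cardiomyopathy.

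Promoters are shown for the genes that the results turn on most: Mrpl28, among the largest changes, Mrps25, lower in 4 comparisons, Mrpl27, lower in 3, and Mrpl33, a member that was higher. RefSeq (GRCm38.p6) gave 73 promoter windows for 67 of the 76 genes, each running from 250 bases before to 50 bases after the transcript start. Printed below in lower case are the 150 bases before and 20 bases after the start, 5′ to 3′ on the gene's strand, with capitals marking the letters CCGGAAGT.
Mrpl28, GRCm38.p6 chr17:26123353-26123522, plus strand: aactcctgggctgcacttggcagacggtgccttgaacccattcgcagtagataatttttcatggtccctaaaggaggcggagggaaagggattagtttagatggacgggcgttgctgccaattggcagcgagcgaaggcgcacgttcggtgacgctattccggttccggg
Mrps25, GRCm38.p6 chr6:92184004-92184173, minus strand: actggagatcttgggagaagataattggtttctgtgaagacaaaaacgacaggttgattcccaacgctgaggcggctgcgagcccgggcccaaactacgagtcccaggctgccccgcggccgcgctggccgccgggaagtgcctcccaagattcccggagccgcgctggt
Mrpl27, GRCm38.p6 chr11:94653641-94653810, plus strand: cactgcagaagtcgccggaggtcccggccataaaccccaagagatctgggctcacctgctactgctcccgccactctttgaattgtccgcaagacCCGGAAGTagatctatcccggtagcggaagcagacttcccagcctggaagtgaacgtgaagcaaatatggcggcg
Mrpl33, GRCm38.p6 chr5:31613801-31613970, plus strand: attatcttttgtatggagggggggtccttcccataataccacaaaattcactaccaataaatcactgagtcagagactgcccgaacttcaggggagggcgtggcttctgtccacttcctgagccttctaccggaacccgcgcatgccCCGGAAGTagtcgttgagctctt
Exact letters were searched on both strands over the whole 300-base windows. CCGGAAGT, a core bound by Ets factors such as Gabpa, was in 12 of the 73 windows (16.4%) and in 3.89% of 32851 windows of all genes. AAGATGGCG, a core bound by Yy1, was in 8 (11%) against 1.4%, and CGCATGCGC, bound by Nrf1, in 7 (9.59%) against 1.75%. Mrps27 has both the Ets and the Yy1 letters and is in both counts. The Ets letters stand in Mrpl27, which was lower, and in Mrpl33. In early MKK3bE hearts Mrpl33 was higher by its brightest probe set (0.97) and lower by a further one (-0.88). None of these 3 sets of letters is in the printed stretch of Mrpl28 or Mrps25. Of the genes lower in 3 comparisons that have a window, only Mrpl27 holds the Ets letters. In late HRas-v12 hearts the 12 genes with the Ets letters had a median log2 change of -0.33 and the 55 without -0.39, or -0.15 and -0.22 with the 6 arrays described next left out. In late MKK3bE hearts the medians were -0.40 and -0.29.

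6 arrays went against their labels in earlier results on these data, and most counts and medians that rest on them are given with and without them. The Mer part of Mer-Cre-Mer is an altered estrogen receptor, so the Esr1 probe set reports the driver. Esr1 signal was 294 to 7943 on the shared controls and 33382 to 143792 on the MKK3bE and MKK7D arrays. It was 688 on HRas-v12 female early replicate 3, 2915 on HRas-v12 male late replicate 1 and 1327 on HRas-v12 male late replicate 3, arrays labelled transgenic. It was 106402 and 91291 on MKK7D control female late replicates 8 and 9, arrays labelled control. The remaining one is MKK7D control female early replicate 1, whose sex-linked genes went against its label. On 3 HRas-v12 male early arrays Esr1 was 12437 to 21172, between both ranges.

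Across the arrays, the median Mrp gene lay below the shared controls in most transgenic hearts, while the median of all genes stayed within 0.08 of it. Values here are the median over the 76 genes of log2(signal + 32) minus the mean of the 6 shared controls. The 6 shared controls themselves ran from -0.14 to 0.08. The 3 HRas-v12 male early arrays stood at -0.40, -0.42 and -0.43, and the HRas-v12 female late arrays at -0.27, -0.43 and -0.45. All 7 MKK3bE arrays lay between -0.40 and -0.23. These groups did not overlap the controls of their own sex.
HRas-v12 male late arrays split widely, at -0.03, -1.0 and -0.04 for replicates 1, 3 and 4. The low one, replicate 3, has the Esr1 signal of a control and a median macrophage marker 2.34 above control, and replicate 4 lies among the controls although its Esr1 signal is 155949. HRas-v12 female early arrays stood at -0.10 for replicate 1 and 0.06 for replicate 3, the array without Esr1 signal. The MKK7D arrays ran from -0.27 to -0.09 early and from -0.40 to -0.22 late. Their own controls stood at 0.23, -0.07 and 0.16 early. Late, control replicate 10 was at 0.02 and replicates 8 and 9, the pair with driver signal, at -0.46 and -0.51, lower than every late MKK7D array.

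**Figure D1:**
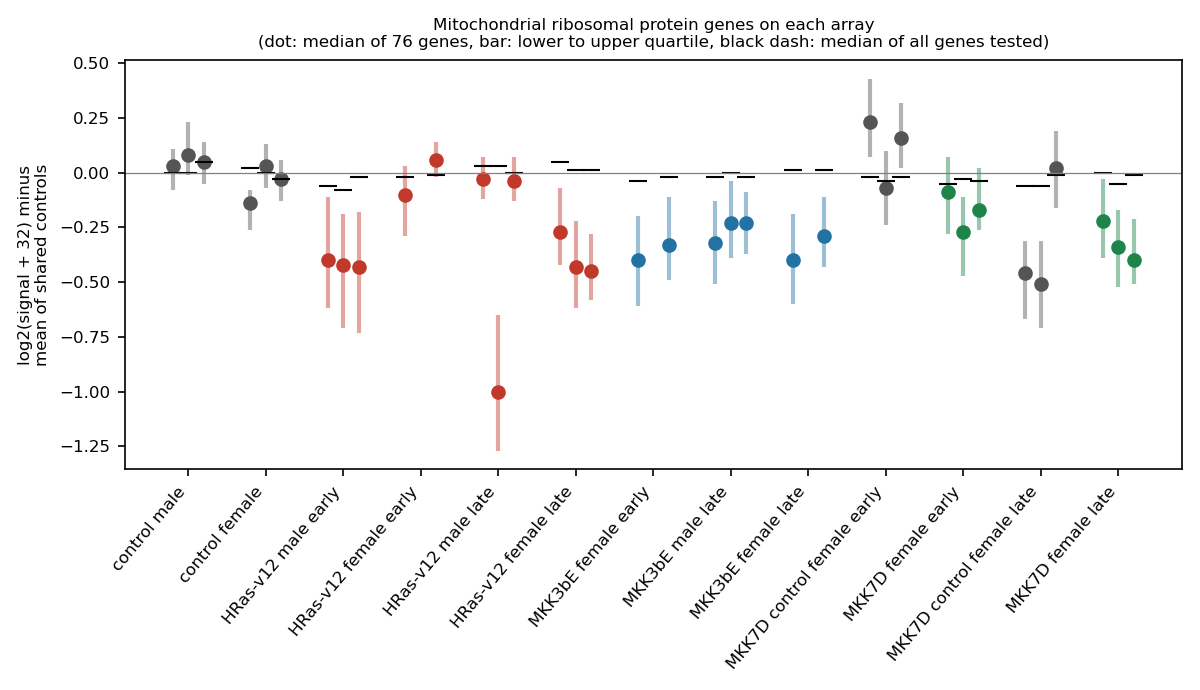
Median over the 76 Mrp genes on each of the 36 arrays (dots) with the range from the lower to the upper quartile of the genes (bars), as log2(signal + 32) minus the mean of the 6 shared controls; black dashes give the median of all 12626 genes tested. HRas-v12 male late replicate 3 is lowest at -1.0, and MKK7D control female late replicates 8 and 9 lie at -0.46 and -0.51 beside the late MKK7D arrays.

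Early HRas-v12 hearts had lower Mrp signal in males. Over both sexes 16 of the 76 genes were lower and 0 higher by limma (adjusted p under 0.05), 21.1% of the members against 18.7% of all genes tested called lower and 15.1% called higher. That share of lower calls is near the background and says nothing particular about these genes. The median log2 change was -0.21, against -0.04 for all genes, and 61 of 76 values were negative, 80.3% against 54.4% of all genes. All 5 arrays lay below every control of their sex for 3 members, 3.95% against 5.96% of all genes. Leading were Mrpl28 of the large subunit (log2 change -0.94, SE 0.21, 1.92-fold, adjusted p = 0.00133) and, of the small subunit, Mrps35, Mrps9 and Mrps24, by -0.78, -0.72 and -0.65. Mrps34, which stabilises the small subunit, fell by 0.48 (adjusted p = 0.00356).
The sexes differed in the data. In males alone 35 of 76 were lower, against 21.7% of all genes, with a median of -0.48. In females alone 0 passed, as did 0.00% of all genes, 1 had an unadjusted p under 0.05, and the median was 0.04. There were 2 female arrays, 1 of them without Esr1 signal. Without the 6 arrays in doubt, which leaves 1 female array, the median over both sexes was -0.27. It was also -0.27 with only HRas-v12 female early replicate 3, the array without Esr1 signal, left out. Without HRas-v12 female early replicate 1, the female array that does carry the driver, 2 members passed, and 12.4% of all genes were called in either direction.

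The difference between the sexes was tested as an interaction, and 1 of 76 members passed, with a lower value in males, against 0.808% of all genes called in that direction. That gene was Mrpl34, a small bacterial-type protein of the large subunit. Its signals were 11312, 11668 and 10484 in control males against 5172, 4983 and 5538 in HRas-v12 early males, groups far apart. In control females they were 6442, 8324 and 9761 against 9333 and 9660 in HRas-v12 early females, which overlap. The change in males minus that in females was -1.32 (SE 0.31, limma adjusted p = 0.0295). Over the 76 genes 75 such differences were negative, 98.7% against 54.8% of all genes, with a median of -0.50 against -0.06. With the 6 arrays in doubt left out the call was kept (-1.30, adjusted p = 0.0214). On leaving out single arrays it was lost without HRas-v12 female early replicate 3, HRas-v12 male early replicate 1, control female replicate 1 or 4, or any 1 of the 3 control males. Without HRas-v12 female early replicate 1, 5 members passed, 6.58% against 5.87% of all genes called lower, a share near the background.

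Late HRas-v12 hearts had lower Mrp genes over both sexes together. Here 22 of 76 were lower and 0 higher, 28.9% against 4.66% of all genes called lower and 4.86% called higher, and the median log2 change was -0.35 against 0.02 for all genes. In all, 74 of 76 values were negative, 97.4% against 47.8%. Every HRas-v12 late array lay below every control array of its sex for 13 members, 17.1% against 1.65% of all genes. The leading genes were Mrps25, a mitochondria-specific protein of the small subunit (-0.72, SE 0.14, adjusted p = 0.0129), and Mrpl44, which has a ribonuclease-like fold (-0.80, SE 0.18, adjusted p = 0.0146). Further genes lower were Mrpl28 by -0.80, Mrps9 by -0.76, Mrps24 by -0.71, Mrpl46 by -0.68 and Mrpl19 by -0.68, with Mrps18c at -0.47 (adjusted p = 0.0155).
This count turns on single arrays. With HRas-v12 male late replicate 3 left out, the array at -1.0, 4 members passed, and without HRas-v12 female late replicate 3 or 4, 3 or 12 passed. Without HRas-v12 male late replicate 1 or 4, both close to the controls, 41 or 40 passed. Leaving out control male replicate 1 or 2 or control female replicate 1 gave 13, 14 and 8. Over these settings 1.05% to 19.9% of all genes were called in either direction. Without the 6 arrays in doubt 4 members passed, Mrpl15, Mrpl46, Mrps9 and Mrps24, against 0.578% of all genes, with a median of -0.22 and 67 of 76 negative. Without both late male arrays that lack Esr1 signal 0 members passed, and 8 of all genes tested did. In females alone 5 were lower, against 2.70% of all genes, with a median of -0.32: Mrpl28 at -1.07, Mrps9 at -0.95, Mrpl44 at -0.87, Mrps31 at -0.75 and Mrps25 at -0.68. In males alone the median was -0.42, 37 members had an unadjusted p under 0.05, and 0 passed, as did 0.00% of all genes.

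Early MKK3bE hearts, all from females, had 1 Mrp gene lower and 1 higher among 76. Mrps25 fell by 1.00 (SE 0.23, adjusted p = 0.0103) and Mrpl33, a small bacterial-type protein of the large subunit, rose by 0.97 (SE 0.26, adjusted p = 0.0254). The share lower was 1.32% of the members against 2.78% of all genes, and 3.48% of all genes were higher. The median was -0.30 against -0.02 for all genes, 64 of 76 values were negative against 52.4% of all genes, and 20 had an unadjusted p under 0.05. Both arrays lay below all 3 control females for 43 members, 56.6% against 22.6% of all genes. Neither of these hearts is among the arrays in doubt, but the fit shares its estimate of spread with them. Without those 6 arrays 22 members were lower and 1 higher, against 8.47% of all genes called lower. The call for Mrps25 was lost without MKK3bE female early replicate 2 (adjusted p = 0.158). The call for Mrpl33 was lost without either MKK3bE array (0.141 and 0.143) or without control female replicate 1 or 2 (0.0505 and 0.0725).

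Late MKK3bE hearts had 15 of 76 Mrp genes lower and 0 higher. That is 19.7% against 5.39% of all genes called lower and 5.06% called higher, with a median of -0.31 against -0.01 and 66 of 76 values negative, against 51.9% of all genes. Every MKK3bE late array lay below every control array of its sex for 36 members, 47.4% against 8.16% of all genes. Mrps18c, a bacterial-type protein of the small subunit, had the smallest adjusted p (-0.54, SE 0.11, adjusted p = 0.00357), followed by Mrps25 (-0.68, SE 0.15, 0.00516) and Mrpl28 (-0.88, SE 0.21, 0.00828). Mrpl39, a mitochondria-specific protein of the large subunit, fell by 0.73 (adjusted p = 0.0137), Mrpl44 by 0.63, Mrps24 by 0.59 and Mrpl27 by 0.40. No array of these groups is in doubt, and the median was -0.28 over 2 female arrays and -0.34 over 3 male arrays.
With 1 sex at a time 0 members passed in females, where 18 had an unadjusted p under 0.05 and 0.594% of all genes were called lower. In males 1 passed, Mrps18c (-0.60, adjusted p = 0.0357), against 0.935% of all genes. The count fell to 3 without MKK3bE female late replicate 2 and to 5 without replicate 3. It was 7, 9 and 9 without MKK3bE male late replicates 2, 3 and 4. Without control male replicate 1 or 2 it was 9 or 5, and without control female replicate 1 or 2 it was 6 or 8. Over these settings 4.28% to 8.98% of all genes were called in either direction. Without the 6 arrays in doubt 41 members were lower and 1 higher, Mrpl54, against 11.0% of all genes called lower. The change of Mrpl28 was the same -0.88 in both fits while its SE went from 0.21 to 0.13.

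In MKK7D hearts no Mrp gene passed at either time. Early, 0 of 76 passed, against 0.135% of all genes, 16 had an unadjusted p under 0.05, and the median was -0.28 against 0.00 for all genes, with 72 of 76 negative against 50.2% of all genes. The 3 early MKK7D arrays lay below all 3 of their controls for 35 members, 46.1% against 12.1% of all genes. Late, 0 of 76 passed, as did 0.00% of all genes, 1 had an unadjusted p under 0.05, the median was 0.05, and 29 were negative against 46.5% of all genes. No member had all 3 late arrays below their controls, while 5.53% of all genes did, and 7 had all 3 above, against 6.98% of all genes.
The late comparison rests on controls of which 2 of 3 carry driver signal. Against control replicate 10 alone the median was -0.29 and 68 of 76 values were negative. That fit leaves out all 6 arrays in doubt and takes the lone control to vary like the other groups. There 4 members passed, against 1.17% of all genes, and they are named after their values were seen. Mrpl39 stood at 44755 on control replicate 10, 19205 and 20244 on replicates 8 and 9, and 20593, 19064 and 21659 on the MKK7D arrays. The labelled controls thus overlap the MKK7D arrays through replicates 8 and 9. Its change was -0.34 with all 3 controls and -1.13 with replicate 10 alone. Replicate 10 had the highest Mrpl39 signal of all arrays, above the 30773, 37249 and 32617 of the shared control females. The size of the second change therefore rests on that 1 array. Mrpl14, a bacterial-type protein of the large subunit, changed by -0.03 and -0.85 (adjusted p = 0.00771). Mrpl46 changed by -0.77 and Mrps31 by -0.62 in the second fit. Against the 3 shared control females, in place of its own, 3 members were lower, 3.95% against 6.01% of all genes called lower. In that comparison the median was -0.22 against -0.02 for all genes, and 65 of 76 values were negative, 85.5% against 51.4%. Early, with the 6 arrays in doubt left out, 1 member passed, Mrpl14 (-0.64, adjusted p = 0.0228), against 0.333% of all genes called lower.

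**Figure D2:**
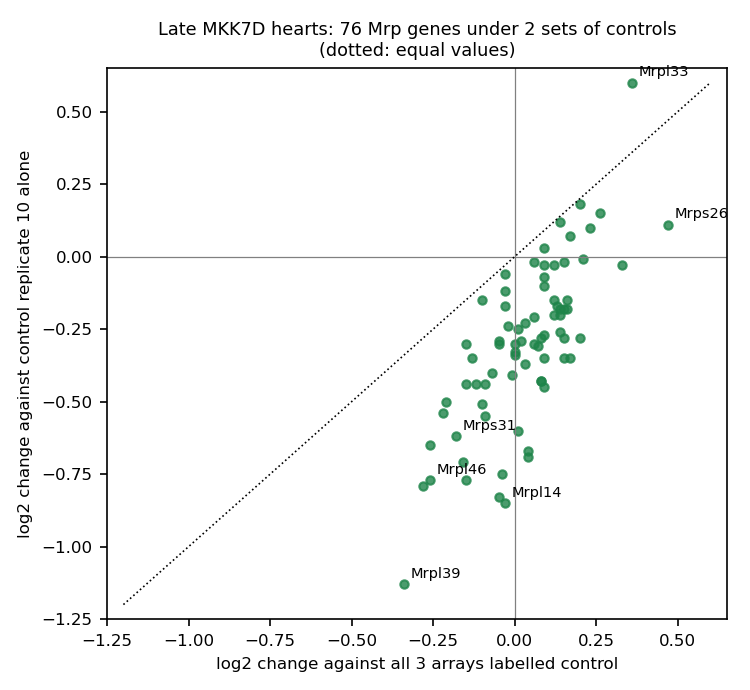
Log2 change of each of the 76 Mrp genes in late MKK7D hearts, against all 3 arrays labelled control (x) and against control replicate 10 alone (y). Most genes lie below the dotted line of equal values, and the median goes from 0.05 to -0.29.

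Over the 6 comparisons with control, 33 of the 76 genes were lower in at least 1, 43.4% against 22.4% of all genes. Mrps25 was lower in 4. Mrpl2, Mrpl27, Mrpl28, Mrpl44, Mrps9, Mrps24 and Mrps35 were lower in 3, early HRas-v12, late HRas-v12 and late MKK3bE. Another 4 were lower in 2, 21 in 1 and 43 in none. The 8 genes lower in at least 3 were 10.5% of the members, against 2.00% of all genes. These counts are for the fit with all arrays only. Without the 6 arrays in doubt, only Mrps9 and Mrps24 of these 8 genes kept their call in late HRas-v12 hearts. The HRas-v12 and MKK3bE comparisons share their controls, so their lists are not independent.

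**Figure D3:**
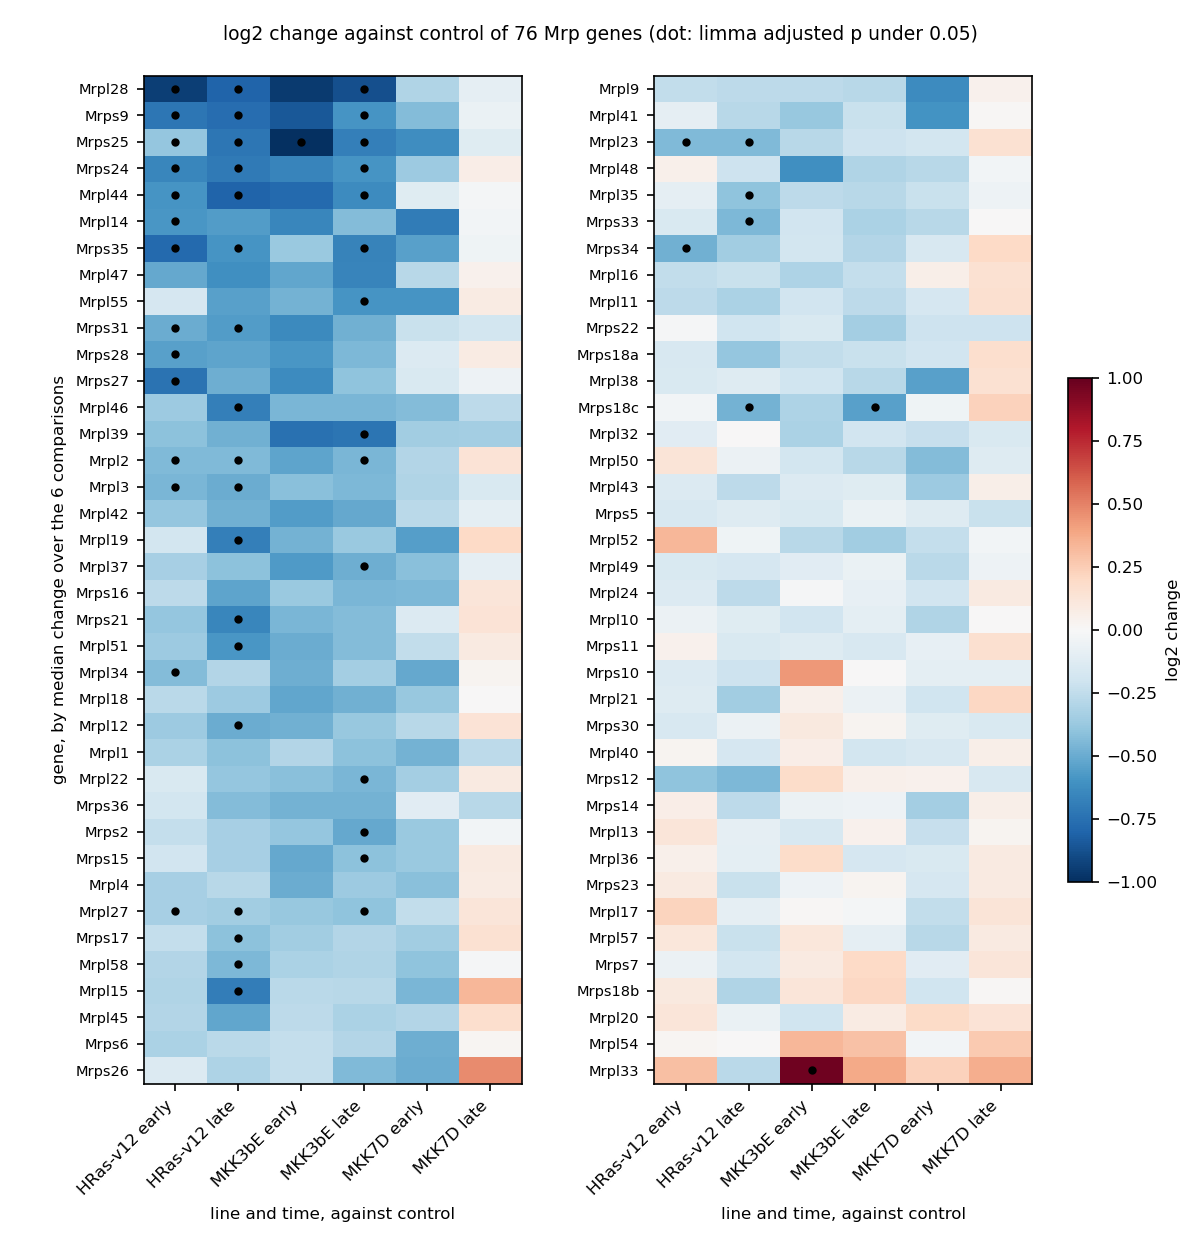
Log2 change against control of the 76 Mrp genes in each line and time, ordered by their median over the 6 comparisons; blue is lower, red higher, and a black dot marks a limma adjusted p under 0.05. Mrpl28, Mrps9 and Mrps25 head the list, late MKK7D runs from -0.34 to 0.47 with a median of 0.05, and Mrpl33 ends it with 0.97 in early MKK3bE hearts.

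Mrpl28, a bacterial-type protein of the large subunit, showed large changes. Its signals were 21355, 27734 and 24892 in control males and 26825, 34594 and 21967 in control females. In early HRas-v12 males they were 9561, 10807 and 8738, and in late HRas-v12 females 16466, 12345 and 10776. Neither group overlapped its controls. Late HRas-v12 males had 22268 and 26387 on replicates 1 and 4, within the control range, and 8331 on replicate 3. Late MKK3bE males had 18442, 15473 and 15226 and late MKK3bE females 11782 and 12456, all below their controls. The late HRas-v12 call was lost without HRas-v12 female late replicate 3 (adjusted p = 0.0554) or HRas-v12 male late replicate 3 (0.0656). Its other probe sets moved less: in early HRas-v12 hearts the probe set used changed by -0.94 and the others by -0.72 and -0.19.
Mrps25 had signals of 5284, 10106 and 7250 in control males and 7841, 6943 and 8296 in control females. Early MKK3bE females gave 4412 and 3330, and late MKK3bE females 5051 and 4817, all below those females. Late MKK3bE males gave 3997, 4509 and 4624, below the lowest control male. Its values in early HRas-v12 were 4326, 3370 and 4422 in males, lower than controls, and 7343 and 8882 in females, within and above the control range. A further probe set of the gene gave a similar change in late HRas-v12 hearts, -0.65 beside -0.72, and another gave -0.17 (SE 0.31).
Mrpl44 had 12035, 13230 and 14076 in control males and 14150, 15730 and 12386 in control females. Late MKK3bE signals were 9025, 8746 and 9129 in males and 7302 and 9828 in females, with no overlap. In late HRas-v12 females they were 9660, 7108 and 6569, and in late HRas-v12 males 10273, 3941 and 11878. All 6 late HRas-v12 arrays lay below the controls of their sex, replicate 4 of the males by little. The late MKK3bE call was lost on leaving out any 1 of 7 arrays, to an adjusted p of 0.166 at most, without MKK3bE female late replicate 2.
Mrps9, a bacterial-type protein of the small subunit, had 11110, 10519 and 10459 in control males and 10666, 11270 and 12711 in control females. Early HRas-v12 males had 4883, 5338 and 5489, and late HRas-v12 females 7884, 5188 and 5184. Early and late MKK3bE females had 6126 and 6647, and 6268 and 7034. None of these overlapped the controls. Mrps24, another bacterial-type protein of the small subunit, had 11491 to 14490 in control males and 5407 to 6247 in early HRas-v12 males.
Mrpl33 went the other way in MKK3bE hearts. Its signals were 12084 and 12071 in early MKK3bE females against 6476, 6560 and 5487 in control females. Late MKK3bE males had 13989, 7167 and 8210 and late MKK3bE females 7299 and 5638. The early arrays were well above the controls, and the late females overlapped them. A further Mrpl33 probe set changed by -0.88 (SE 0.39) in the same early comparison, opposite in sign to the 0.97 of the brightest one, and with the mean of both the change was 0.04. The direction for this gene therefore depends on the probe set. Of the other genes called, Mrpl15 (0.32 against -0.69) and Mrps21 (0.10 against -0.65) had a further probe set of opposite sign in late HRas-v12 hearts.

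**Figure D4:**
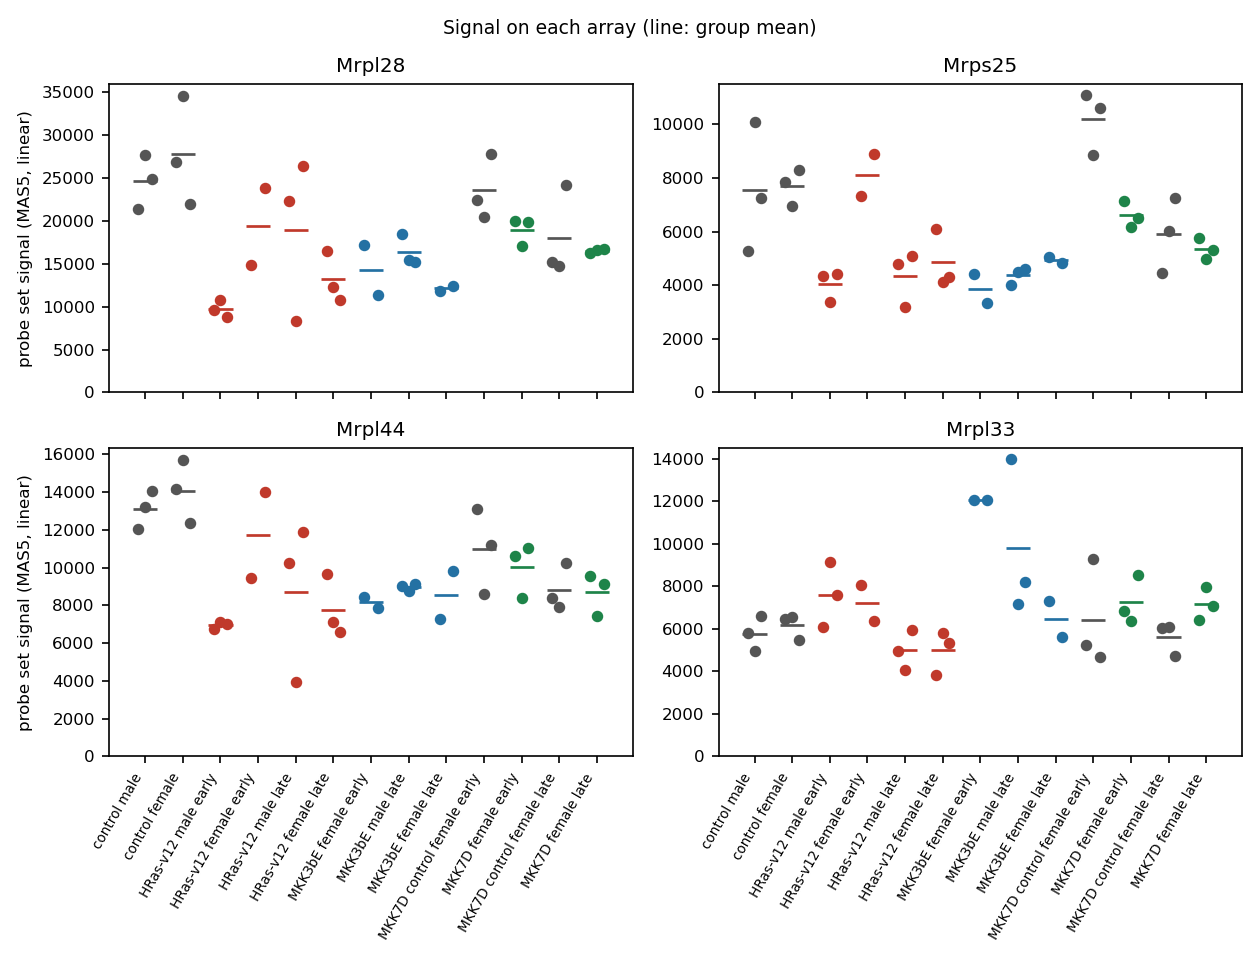
MAS5 signal of Mrpl28, Mrps25, Mrpl44 and Mrpl33 on each of the 36 arrays (dots, linear axes from 0) with group means (lines). Early HRas-v12 males lie below the controls for Mrpl28, Mrps25 and Mrpl44, and the early MKK3bE females stand at 12084 and 12071 for Mrpl33.

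Lines and times were also compared with each other. HRas-v12 late against early gave 3 members lower and 0 higher, against 4.67% of all genes called lower and 6.91% called higher, with a median of -0.13: Mrps18c (-0.44), Mrps18b (-0.41) and Mrpl33 (-0.57). Mrps18b and Mrps18c are paralogues of the same bacterial protein. Signals of Mrps18b in early HRas-v12 hearts were 5934, 7722 and 5839 in males and 5995 and 5329 in females. Late, they were 6401, 3827 and 4829 in males and 4157, 4599 and 3919 in females. The female groups did not overlap, and the male groups did. The count was 0 without HRas-v12 female early replicate 1, 1 without HRas-v12 male early replicate 2 or HRas-v12 female late replicate 2, and 5 without HRas-v12 female early replicate 3 or HRas-v12 male late replicate 4. These settings called 338 to 2270 of the 12626 genes in either direction. Leaving out the 6 doubtful arrays gave 1 lower, Mrps18b, against 11.8% of all genes, and 4 higher, against 14.3%. The 4 were Mrpl28, Mrps9, Mrps28 and Mrps35, by 0.44 to 0.63, and both shares lie below the background.
Late HRas-v12 against late MKK3bE gave Mrps18b (-0.51, SE 0.12), Mrps7 (-0.38, SE 0.09) and Mrpl33 (-0.65, SE 0.18), all lower in HRas-v12, against 2.04% of all genes called lower. Mrps7, an early-binding protein of the small subunit, had 9231, 9175 and 7906 in late MKK3bE males and 7990 and 8369 in females. In late HRas-v12 hearts it had 8144, 5290 and 7711 in males and 6546, 6029 and 5723 in females. The females did not overlap. None of these 3 genes passed against control late in HRas-v12 or MKK3bE hearts. The count was 0 without MKK3bE female late replicate 3, which called 1.39% of the genes tested. In the fit that omits the 6 arrays in doubt Mrps18b (-0.52) and Mrps7 (-0.30) were lower, against 3.26% of all genes, and Mrpl39 was higher (0.51), against 3.19%. Mrpl33 stood at -0.52 there (adjusted p = 0.154).
Early, HRas-v12 females against MKK3bE females gave 1 member, Mrps25, higher in HRas-v12 by 1.07 (SE 0.25, adjusted p = 0.0199), against 0.451% of all genes called higher. It was not called without HRas-v12 female early replicate 3, the array without Esr1 signal, or without either MKK3bE array, and it stood at 0.93 with all 6 arrays in doubt left out (adjusted p = 0.0531). In 3 comparisons 0 members passed. MKK3bE females late against early had 1 at an unadjusted p under 0.05 and 0.00792% of all genes called. The late change against the early change in MKK7D had 4 at that level, 0.0158% of all genes called and a median of 0.31, which was -0.05 without the 6 arrays in doubt. Control males against control females had 3 and 0.00%, with a median of 0.13.

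In late HRas-v12 and late MKK3bE hearts the medians were negative for Mrpl and for Mrps genes, grouped by name, and in every structural class. In late HRas-v12 hearts 13 of 47 Mrpl and 9 of 29 Mrps genes were lower, with medians of -0.35 and -0.39. In late MKK3bE hearts the counts were 8 and 7, with medians of -0.30 and -0.34. Proteins of bacterial type in the large subunit had medians of -0.35 and -0.28 in these comparisons, and the mitochondria-specific ones -0.27 and -0.29. In the small subunit the medians were -0.33 and -0.29 for the bacterial type, and -0.45 and -0.40 for the 9 mitochondria-specific genes. The 6 genes at the rim of the exit tunnel, where new proteins leave towards the inner membrane, had medians of -0.42 and -0.26. The 4 genes of the stalk that binds translation GTPases had -0.22 and -0.18, and among them Mrpl12, which forms the stalk's tip, was lower in late HRas-v12 hearts (-0.50, adjusted p = 0.0291). With the 6 arrays in doubt left out, 2 of 47 Mrpl and 2 of 29 Mrps genes were lower in late HRas-v12 hearts, with medians of -0.18 and -0.22. The medians of these 6 classes then ran from -0.25 to -0.08, and Mrpl12 was not called. Mrps30 and Mrps18a sit in the large subunit despite their names, and the structural classes count them there. Mrps36, whose product is known as a subunit of the α-ketoglutarate dehydrogenase complex, is in none of these classes. By name, Mrps30, Mrps18a and Mrps36 are all among the 29 Mrps genes, so the Mrpl and Mrps values are not exact subunit values. No difference between classes was tested.

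Other genes of mitochondrial gene expression were taken from lists chosen with earlier results known. The counts below are for early HRas-v12, late HRas-v12 and late MKK3bE hearts, where 18.7%, 4.66% and 5.39% of all genes were lower. Of 13 translation factors, 6 were lower in early HRas-v12, 2 in late HRas-v12 and 2 in late MKK3bE hearts, and 0 were higher. Mtif2, the initiation factor, fell by 0.57, 0.49 and 0.56 in these, and Mtrf1l, a release factor, by 0.50 in early HRas-v12 hearts. Of 18 assembly and rRNA modification genes 10, 2 and 3 were lower, among them Nsun4, an rRNA methyltransferase (-0.88 in early HRas-v12), Fastkd2, an RNA-binding protein (-0.65 in late HRas-v12), and Gtpbp10, a GTPase of large subunit assembly (-0.59 in late MKK3bE). Of 16 mitochondrial tRNA synthetases 4, 0 and 1 were lower. Vars2, which charges the valine tRNA, fell by 1.06 in early HRas-v12 hearts, and Ears2, for glutamate, rose by 0.87 in early MKK3bE hearts. Of 10 genes of mitochondrial DNA upkeep and transcription 6, 0 and 2 were lower, including Polrmt, the RNA polymerase (-0.52 in early HRas-v12). Of 4 further mitoribosome proteins, Dap3 was lower by 0.70 in early and Chchd1 by 0.49 in late HRas-v12 hearts. In the fit omitting the 6 arrays in doubt, 10 translation factors, 12 assembly genes, 9 synthetases and 7 genes of DNA upkeep were lower in early HRas-v12 hearts, against 22.7% of all genes. In late HRas-v12 hearts 0 genes of these lists passed there, against 0.578% of all genes called lower.
RNA signals of nuclear respiratory chain genes, whose products assemble with those of the mitochondrial ribosome, were lower in HRas-v12 hearts as well. Of 37 nuclear genes of the respiratory chain and ATP synthase, 36 were lower in early HRas-v12, 30 in late HRas-v12, 0 in early MKK3bE and 3 in late MKK3bE hearts, with medians of -0.57, -0.49, -0.49 and -0.38. Without the 6 arrays in doubt, 33 were lower in early and 35 in late MKK3bE hearts, against 8.47% and 11.0% of all genes. In early MKK7D hearts 0 were lower there, against 0.333% of all genes. That fit leaves 1 array in a group of the early HRas-v12, late HRas-v12 and late MKK7D comparisons, so no count is given. The counts of 36 and 30 include arrays in doubt. Uqcrc1, a core protein of complex III, fell by 0.87 in early HRas-v12 hearts. Their median was -0.12 and -0.11 in early and late MKK7D hearts, with 0 called. The 43 cytosolic ribosomal protein genes had medians of 0.04 and -0.16 in early and late HRas-v12 hearts, with 3 lower and 6 higher early and 8 lower late, or 5, 6 and 0 without the 6 arrays in doubt. In early and late MKK3bE hearts their medians were 0.04 and 0.00, with 0 and 1 lower. Of 12 regulators of mitochondrial biogenesis, 6 were lower and 2 higher in early HRas-v12 hearts. Esrrg, an estrogen-related receptor, fell by 1.19 and Gabpa by 0.56, while Pprc1, a PGC-1 family coactivator, rose by 0.77. The other gene higher was Myc, a transcription factor of growth, by 2.03 (adjusted p = 0.00263). Myc also rose in MKK3bE hearts, by 2.75 early and 2.34 late, and it stood at 1.32, 2.21 and 1.01 in late HRas-v12, early MKK7D and late MKK7D hearts (adjusted p = 0.0680, 0.149 and 0.999). Of 13 genes of the mitochondrial stress response, 5 were lower and 2 higher in early HRas-v12 hearts, 1 was lower in late HRas-v12 and in early MKK3bE hearts, and 1 was higher in late MKK3bE hearts. When the 6 arrays were omitted, 7 regulators and 6 stress genes were lower and 2 of each higher in early HRas-v12 hearts, and 0 of either list passed in late HRas-v12 hearts. Differences between lists were not tested.

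**Figure D5:**
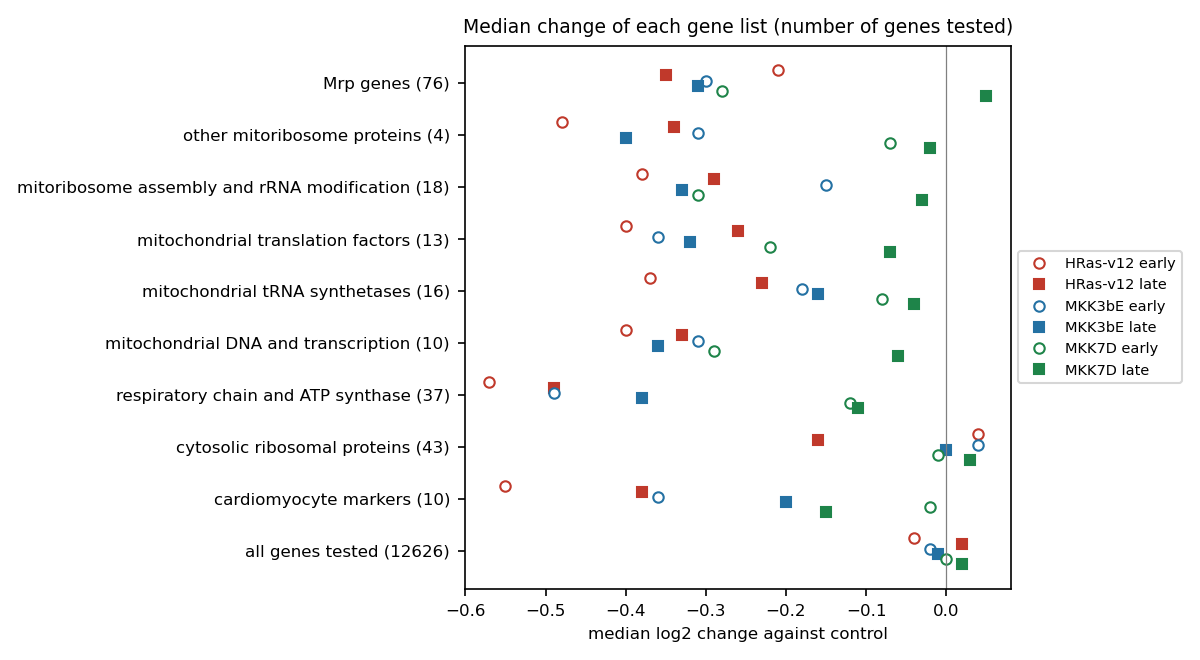
Median log2 change against control of each gene list (number of genes tested in brackets), 1 point per line and time; open circles are early and filled squares late. Mrp genes lie between -0.35 and 0.05, the respiratory chain list reaches -0.57, and cytosolic ribosomal proteins stay between -0.16 and 0.04.

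Markers of cell types changed in the same comparisons, in which 18.7%, 4.66%, 2.78% and 5.39% of all genes were lower and 15.1%, 4.86%, 3.48% and 5.06% higher, for early and late HRas-v12 and early and late MKK3bE hearts. Of 10 cardiomyocyte markers 10 were lower in early and 8 in late HRas-v12 hearts, with medians of -0.55 and -0.38, and 0 passed in MKK3bE hearts (-0.36 early, -0.20 late). Their summed signal was 1539254 to 1684163 in control males and 1015660 to 1213654 in early HRas-v12 males. In late MKK3bE males it was 1386799 to 1629997, which overlaps the controls. Of 10 fibroblast markers 7 and 5 were higher in early and late HRas-v12 hearts and 5 and 4 in early and late MKK3bE hearts, with medians of 0.87, 0.89, 1.39 and 0.73. Of 10 macrophage markers 7 and 1 were higher in early and late HRas-v12 hearts and 0 in MKK3bE hearts, and of 10 endothelial markers 7, 2, 1 and 1 were lower in the 4 comparisons. Of 5 smooth muscle markers 1 was lower and 1 higher in early HRas-v12 hearts, and 1 was lower in late HRas-v12 and in late MKK3bE hearts. None of these 5 lists had a member called in MKK7D hearts. With those 6 arrays left out, late HRas-v12 hearts had 0 cardiomyocyte, macrophage, endothelial or smooth muscle markers called and 1 fibroblast marker higher. In that fit 4 cardiomyocyte markers were lower in early and 4 in late MKK3bE hearts, against 8.47% and 11.0% of all genes. Late MKK7D hearts have control replicate 10 alone in that fit, so no marker count is given for them. In whole ventricle, fewer cardiomyocytes and less of these RNAs per cardiomyocyte cannot be told apart, and the part of cell makeup in the Mrp changes was not tested.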

How the data were processed

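Left ventricle RNA was measured on 36 arrays in 13 groups. The deposited series table holds MAS5 signal intensity, per the submitters' processing notes, on a linear scale. The MAS5 version and scaling are not given in the sources used here, but every array has a trimmed mean of 2500, and array medians are 593.5 to 798.6. Values became log2(signal + 32). The upper 60% of probe sets by mean (27022, signal above 414.3) were kept, and the brightest per gene gave 12626 genes. limma 3.58.1 (R 4.3.3) fitted all group means together with a mean-variance trend (23 residual degrees of freedom, 4.61 prior). Sexes were averaged with equal weight, 13 comparisons were made, and p-values were Benjamini-Hochberg adjusted over all 12626 genes. A gene was called at an adjusted p under 0.05. A change on this log scale understates that of dim genes. The members, gene lists and arrays in doubt were chosen with earlier results of these data known.

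Genes named in a comparison were up to 10 called members with the smallest adjusted p, the 3 largest changes either way, members whose probe sets disagree, and up to 4 leading genes of other lists, with others named as part of a count. Symbols follow the platform annotation, updated through gene numbers. The limma step was tested on simulated data. Alternatives were scaling, pseudocount, filter, choice of probe set, the groups in the fit, single sexes, the replicate block and leaving out arrays. Same-numbered arrays of 1 sex did not deviate together (23 pairs, r from -0.34 to 0.12), so the numbers were not taken as pairs.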

Additional observations from a re-analysis of the deposited data

Results flagged for a closer look

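The tests of differences between lines, times or sexes picked out 8 results among the Mrp genes. Between late and early HRas-v12 hearts, Mrpl33 differed by -0.57 (SE 0.18, limma adjusted p = 0.0331), Mrps18b by -0.41 (SE 0.12, 0.0311) and Mrps18c by -0.44 (SE 0.11, 0.0142). Between late HRas-v12 and late MKK3bE hearts, Mrpl33 differed by -0.65 (SE 0.18, adjusted p = 0.0303), Mrps18b by -0.51 (SE 0.12, 0.0153) and Mrps7 by -0.38 (SE 0.09, 0.0171). Between early HRas-v12 and early MKK3bE females, Mrps25 differed by 1.07 (SE 0.25, adjusted p = 0.0199). The change of Mrpl34 in early HRas-v12 males minus that in females was -1.32 (SE 0.31, adjusted p = 0.0295). Each of these calls is lost under at least 1 of the alternatives tried.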

How the results depend on the processing

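Over 1436 gene values recomputed under an alternative, 1189 kept their side of the threshold, 233 lost the call and 14 gained it. No value changed sign where either fit called the gene. Genes called in neither fit count among the 1189 even where the sign changed. An example is Mrpl15 in late MKK7D hearts, at 0.33 and as low as -0.37. The counts that follow, here and in the next paragraph, stand without the share of all genes called under the same setting. They show how far the calls depend on the setting, not whether Mrp genes stood out from other genes. With only the groups compared in the fit, members called were 26 in early HRas-v12, 0 in late HRas-v12, 11 in early MKK3bE, 36 in late MKK3bE and 4 in early MKK7D, and 0 for HRas-v12 late against early and for both comparisons of HRas-v12 with MKK3bE. Median scaling gave 39 in late HRas-v12 and 8 for HRas-v12 late against early. With the mean of a gene's probe sets 1 was called in early MKK3bE, and 0 for HRas-v12 against MKK3bE early and for the sex difference. Without the 6 arrays in doubt the counts were 35 and 4 in early and late HRas-v12, 1 and 4 in early and late MKK7D, 5 for HRas-v12 late against early and 0 for HRas-v12 against MKK3bE early. Shared control females gave 3 in late MKK7D. Chosen after seeing the data, females alone gave 0 and 5 in early and late HRas-v12 and 0 in late MKK3bE, males alone 35, 0 and 1, and leaving out both late HRas-v12 males without Esr1 signal 0. With the replicate number as a block, 2 were called in early HRas-v12 and 0 in late HRas-v12, early and late MKK3bE, HRas-v12 late against early, both comparisons of HRas-v12 with MKK3bE and the sex difference. The cause of these shifts was not tested. Some settings also bring a smaller number of arrays or genes.

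Leaving out 1 array at a time gave 2 to 16 in early HRas-v12, 3 to 41 in late HRas-v12, 0 to 2 in early MKK3bE and 3 to 15 in late MKK3bE. It gave 0 to 5 for HRas-v12 late against early and for the sex difference, 0 to 1 and 0 to 3 for HRas-v12 against MKK3bE early and late, and 0 elsewhere. No paired analysis was possible for MKK7D because its arrays share no replicate numbers with their controls.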
